A study of Mus musculus with 7 samples.

Results

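The cells described here were picked from MYC subgroup mouse atypical teratoid rhabdoid tumours (ATRT), aggressive brain tumours driven by loss of Smarcb1, by raw UMIs of 6 genes known from squamous epithelium. Cells needed at least 500 UMIs and 200 genes, with no more than 20% of UMIs from mitochondrial genes. A cell then needed a sum of 3 or more UMIs over Csta1, Krt17, Slurp1, Ly6g6c, Crct1 and S100a7a, with no minimum for a single gene. It also needed to have no Ptprc and at most 1 UMI of the immune genes Tyrobp, Fcer1g and Cd3g together. At most 2 UMIs of the collagen-matrix genes Dcn, Lum, Col1a1 and Col3a1 together were allowed, and not both Mki67 and Top2a. That left 107 of 18497 kept cells in the 5 MYC libraries, out of 23938 kept cells in all 7 libraries. They are called the gated cells below.

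All tumours came from Rosa26-creERT2::Smarcb1 fl/fl mice, in which the Cre is driven by a ubiquitous promoter, given tamoxifen at 50 mg/kg in utero at 6.5 days post coitum. Tumours were taken when neurological symptoms appeared, and viable cells were profiled by droplet sequencing of transcript 3' ends. MYC replicate 1 was a basal cerebrum tumour at 12 weeks of age, replicate 2 a trigeminal nerve tumour and replicate 3 a lateral cerebellum tumour, both at 19 weeks, replicate 4 a trigeminal nerve tumour at 21 weeks and replicate 5 a basal cerebrum tumour at 27 weeks. The titles of MYC replicates 2 and 3 carry the same number, and these libraries were counted as 1 animal. SHH replicates 1 and 2, at 14 and 16 weeks, came from the striatum and subventricular zone. No unrecombined control tissue was analysed here. Total UMIs per library ranged between 2150925 and 111985990, and MYC replicate 5, which was sequenced at more than one time according to the labels, held 15253 of the 18497 kept MYC cells. Of the barcode sequences, 218 occurred in more than 1 library, and 1 gated cell carried such a barcode.

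Squamous epithelia, such as epidermis and oral mucosa, are layered barriers whose outer cells cross-link proteins into a cornified envelope. Basal keratinocytes of these layers make Krt5 and Krt14 under the transcription factor Trp63, and suprabasal cells switch to other keratins and to envelope proteins. Among the rule genes, Krt17 is a keratin of wound edges and skin appendages, Csta1 is a stefin that inhibits cysteine proteases, and S100a7a is a calcium-binding S100 protein found in inflamed skin. Slurp1 is a secreted and Ly6g6c a membrane-anchored member of the LY6 and uPAR family, and Crct1 belongs, with the S100 genes, to the epidermal differentiation complex.

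The 6 genes lie on 5 chromosomes of GRCm38, the assembly that mm10 names. S100a7a lies at chr3:90654017-90658669 on the plus strand and Crct1 at chr3:93014205-93015687 on the minus strand. Krt17 is at chr11:100256217-100261029 on the minus strand, 48.7 kb from Krt14, and Slurp1 is at chr15:74724318-74728034 on the minus strand, 4.21 kb from its relative Lypd2. Csta1 is at chr16:36119946-36131241 on the minus strand and Ly6g6c at chr17:35065388-35070050 on the plus strand. Promoter entries of RefSeq on GRCm38.p6, running 250 bases before to 50 bases after the start, matched 3 of the 6 genes. They are shown because the gated cells mostly carried these genes singly, so that the letters around each RefSeq start can be set side by side. The S100a7a and Ly6g6c windows lie within the gene positions given above, which are from GENCODE and start further upstream. Each reads 5′ to 3′ on the gene's own strand, and capitals mark a match to a searched motif.
S100a7a, chr3:90654052-90654351, plus strand: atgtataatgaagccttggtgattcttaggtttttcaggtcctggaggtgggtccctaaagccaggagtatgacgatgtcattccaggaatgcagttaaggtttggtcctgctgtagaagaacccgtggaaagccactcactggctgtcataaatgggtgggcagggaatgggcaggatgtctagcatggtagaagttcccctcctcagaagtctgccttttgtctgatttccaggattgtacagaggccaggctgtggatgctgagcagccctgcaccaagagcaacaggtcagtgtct
Csta1, chr16:36131140-36131439, minus strand: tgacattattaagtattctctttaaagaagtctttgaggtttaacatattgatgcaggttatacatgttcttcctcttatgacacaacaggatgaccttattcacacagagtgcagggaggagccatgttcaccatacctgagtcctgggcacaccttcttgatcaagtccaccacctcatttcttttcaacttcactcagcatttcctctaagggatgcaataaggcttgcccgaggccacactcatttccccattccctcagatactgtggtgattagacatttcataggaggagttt
Ly6g6c, chr17:35067075-35067374, plus strand: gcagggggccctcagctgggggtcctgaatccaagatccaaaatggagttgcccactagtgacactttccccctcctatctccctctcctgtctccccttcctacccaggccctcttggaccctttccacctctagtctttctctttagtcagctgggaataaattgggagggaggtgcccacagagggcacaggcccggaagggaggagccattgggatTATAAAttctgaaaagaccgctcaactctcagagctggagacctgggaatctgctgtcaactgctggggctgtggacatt
The motifs searched on both strands were TATAAA, which 13.6% of 32841 promoter entries hold, and the AP-1 motif TGANTCA, which 7.81% hold, and a match to one cannot be part of a match to the other. Ly6g6c held TATAAA on its own strand 30 bases before the start, and the S100a7a and Csta1 windows held neither motif. S100a7a and Ly6g6c each held 2 CpG dinucleotides and Csta1 held 1, against a median of 7 over all entries.

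The gated cells did not carry the rule genes together, and the name squamous-like is not used for them. Of the 107 cells, 93 had UMIs of 1 rule gene alone, 14 had UMIs of 2, and none had 3. S100a7a was the only rule gene in 63 cells (58.9%). The 5 marker genes without S100a7a were seen in 44 cells, and 3 cells had more than 1 of these 5. Crct1 was present in 19 gated cells, Csta1 in 8, Krt17 and Slurp1 in 7 each, Ly6g6c in 6 and S100a7a in 74.

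Within a cell, the gene that was present could be abundant. Krt17 had 114, 47, 19, 16, 11, 8 and 2 UMIs in its 7 cells. Slurp1 had 76, 5, 3, 3, 2, 1 and 1 UMIs, and the cell with 76 also held 7 UMIs of Ly6g6c. The range shows that 1 cell carried most of the Slurp1 found in the gated cells. Crct1 reached 144 UMIs and was at 9 or fewer in 5 of its 19 cells, Csta1 reached 27 and Ly6g6c 13. S100a7a had 3 UMIs in 16 cells and reached 41. The sum of the 6 genes had a median of 8, with 23 cells at exactly 3 and 47 cells at 10 or more. In MYC replicate 5, 27 cells just outside the limit had a sum of 2, with S100a7a in 22 of them, and 22 cells just inside it had a sum of 3. These values chose the cells and are given as a description.

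**Figure D1:**
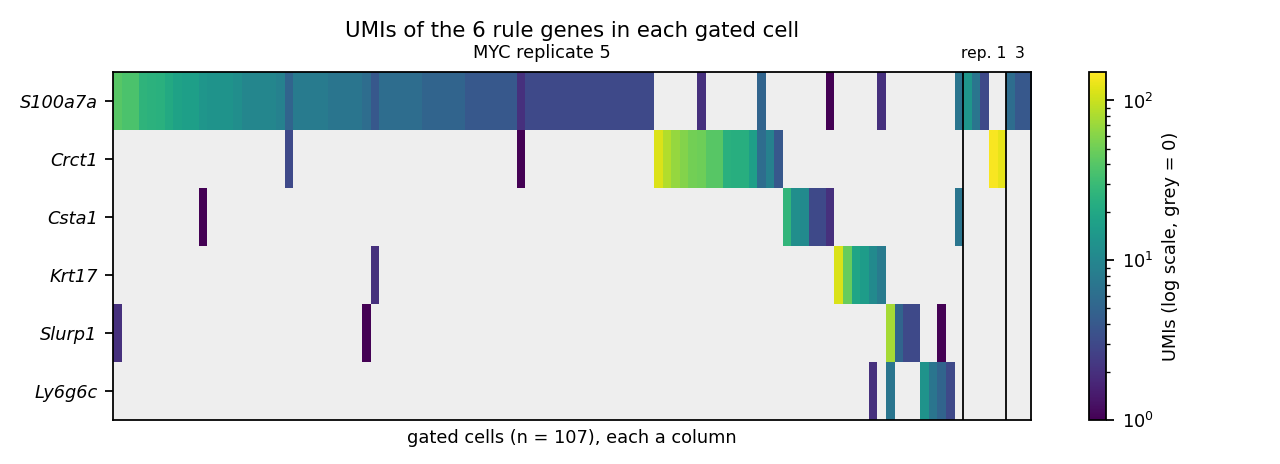
UMIs of the 6 rule genes (rows, log colour scale) in each of the 107 gated cells (columns, MYC replicate 5 at the left, then replicates 1 and 3). In 93 of the columns 1 row alone is coloured. S100a7a is coloured in 74 of all 107 columns and is the only gene coloured in 63.

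The cells were spread unevenly over the tumours. MYC replicate 5 held 99 of 15253 kept cells (0.649%, 95% Wilson interval 0.533 to 0.790%), replicate 1 held 5 of 346 (1.45%, 0.619 to 3.34%) and replicate 3 held 3 of 183 (1.64%, 0.559 to 4.71%). None was found among 445 cells of replicate 2, among 2270 cells of replicate 4 or, by the same criteria, among 3733 and 1708 cells of the SHH tumours. Intervals here and below cover counting error only. The files list a gene only where 3 or more barcodes held it, and the 6 genes were all listed in MYC replicate 5, 4 of them in replicate 1, 1 in replicate 3 and none in replicates 2 and 4. In the SHH tumours, Krt17 was listed in replicate 1, with 5 cells at 1 UMI, and no rule gene was listed in replicate 2. Where no rule gene was listed, the count of 0 was fixed by the file, and cells with a gene seen in fewer than 3 barcodes could not be found.

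The exclusion rules removed most cells that carried the 6 genes. Of 413 MYC cells with a sum of 3 or more, 65 were removed for Ptprc, 123 for the immune sum, 110 for the collagen-matrix sum and 8 as cycling. In MYC replicate 5, a sum of 3 or more was found in 216 of 6852 cells within the immune limits (3.15%, 2.76 to 3.59%), in 182 of 8401 cells outside them (2.17%, 1.88 to 2.50%) and in 56 of 3668 haematopoietic cells (1.53%, 1.18 to 1.98%), which had Ptprc and 2 or more UMIs of the immune genes. Median depths were 6380, 5724 and 5204 UMIs. S100a7a at 3 or more UMIs was found in 1.98% of cells within and 1.24% of cells outside the limits, and Ly6g6c in 0.234% and 0.0952%. Csta1 was at 0.306% within and 0.298% outside, Crct1 at 0.452% and 0.405%, Slurp1 at 0.146% and 0.155%, and Krt17 at 0.117% and 0.0714%. For Csta1, Crct1, Slurp1 and Krt17, each share lay within the counting interval of the other. In the narrower haematopoietic class, Csta1 stood at 0.245%, Crct1 at 0.245%, Slurp1 at 0.164% and Krt17 at 0.0273%. S100a7a stood there at 0.763% and Ly6g6c at 0.0818%. No haematopoietic cell had more than 3 UMIs of Krt17, whereas Slurp1 reached 100 and Crct1 98 UMIs in 1 cell. The part of free RNA or doublets in these shares was not tested. Scrublet marked 1 of the 99 gated cells of replicate 5 among 1861 cells it removed there.

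**Figure D2:**
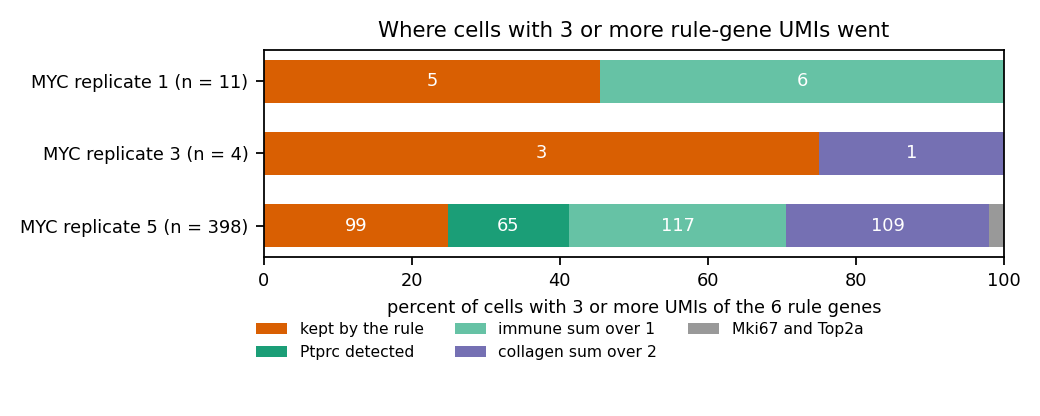
Cells with 3 or more UMIs of the 6 genes in the 3 MYC libraries that had any, as stacked percentages: kept, or removed for Ptprc, the immune sum, the collagen-matrix sum or cycling. The kept part is 5 of 11 cells in replicate 1, 3 of 4 in replicate 3 and 99 of 398 in replicate 5.

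The rule genes were rare over the tumour and concentrated in a few cells. Over all kept cells of MYC replicate 5, Crct1 had 3871 UMIs in 219 cells, with 93.1% of them in 47 cells that held 10 or more. Krt17 had 607 UMIs in 57 cells, with 88.8% in 10 cells, and Slurp1 had 534 UMIs in 79 cells, with 78.1% in 10 cells. Csta1 had 59.2% of 546 UMIs in 19 cells, S100a7a 58.1% of 3047 UMIs in 81 cells, and Ly6g6c 38.3% of 269 UMIs in 7 cells. Among 3589 genes with 200 or more UMIs in at most 5% of cells, 3274 (91.2%) had no cell with 10 or more UMIs. On the share of UMIs held in such cells, Crct1 ranked 5, Krt17 9, Slurp1 20, Csta1 41, S100a7a 43 and Ly6g6c 87. Krt14, the partner keratin of basal keratinocytes, ranked 18, with 78.4% of its 407 UMIs in 13 cells.

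**Figure D3:**
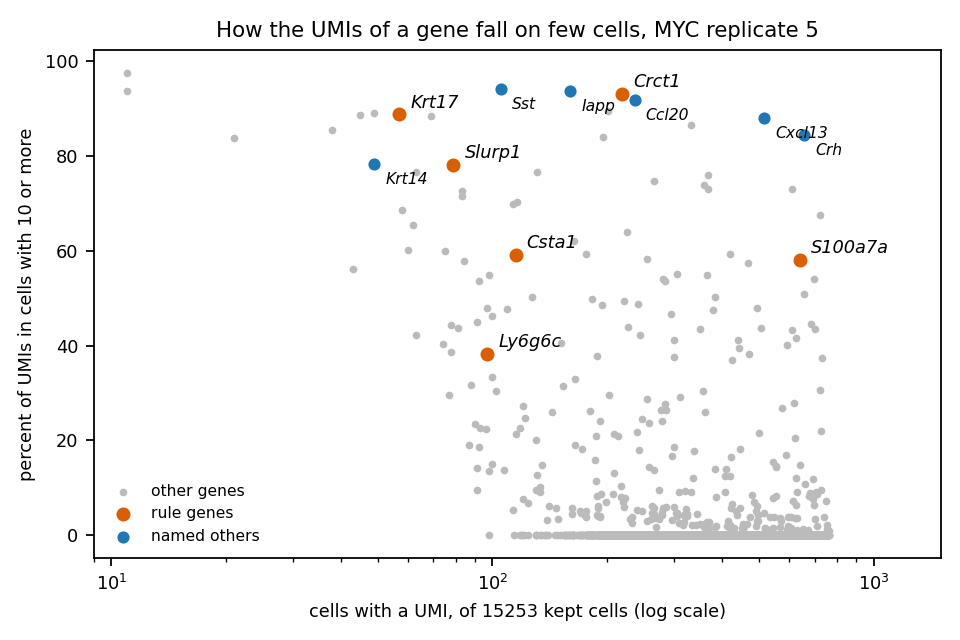
Each point is 1 of 3589 genes in MYC replicate 5, by the number of cells with a UMI (x axis) and the percentage of its UMIs held in cells with 10 or more (y axis). The 6 rule genes (orange) lie between 38.3% and 93.1%, whereas 3274 genes lie at 0; Krt14 and 5 genes chosen after their values were seen are in blue.

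Most cells high in one rule gene held no other, but some pairs were found together in larger shares than over all cells. Of 65 cells with 3 or more UMIs of Crct1 in MYC replicate 5, 17 (26.2%) had S100a7a, which 4.19% of all cells had. None of the 65 had Csta1, Krt17 or Slurp1, which 0.754%, 0.374% and 0.518% of all cells had. At such low shares, 65 cells can be without these genes, and an avoidance between them is not shown. Ly6g6c was present in 5 of 23 cells high in Slurp1 (21.7%) and in 3 of 14 high in Krt17 (21.4%), against 0.636% of all cells. Of 24 cells high in Ly6g6c, 9 (37.5%) held S100a7a and 4 (16.7%) held Slurp1, which 0.518% of all cells held. To compare partners at equal depth, each cell was thinned to 2000 UMIs. Krt14 was then found in 4 of 14 cells high in Krt17, against 0.164% of other cells. Lypd2, a LY6-family neighbour of Slurp1, was found in 10 of 23 cells high in Slurp1, against 0.519% of other cells. Fgfbp1, which encodes a carrier of fibroblast growth factors, was found in 86 of 240 cells high in S100a7a (35.8%), against 11.7% of other cells. Of the 23 cells high in Slurp1, 4 were gated cells, and all 4 held Lypd2, as did 6 of the other 19.

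The 99 gated cells of MYC replicate 5 were split by the rule gene they held into 17 with Krt17, Slurp1 or Ly6g6c, 17 others with Crct1, 8 others with Csta1 and 57 with S100a7a alone. At 2000 UMIs per cell, Ly6d, a LY6-family surface protein of layered epithelium, was found in 16 of the 17 Krt17, Slurp1 or Ly6g6c cells and in 28 of the 57 S100a7a-only cells (94.1% and 49.1%). Rptn, a cornified envelope protein, was found in 5 of 17 (29.4%, Wilson 13.3 to 53.1%) and 3 of 57 (5.26%, 1.81 to 14.4%). Lypd2 was found in 5 of 17 and 2 of 57, and S100a3 in 7 of 17 and 9 of 57. Klf5, a transcription factor of epithelial progenitors, was found in 4 of 17 and 2 of 57. Rptn, Krt14 and S100a3 were found in none of the 17 Crct1 cells at this depth, and without thinning S100a3 was found in 3 of them. For a gene found in none of 17 cells, the Wilson interval reaches 18.4%. The S100a7a-only cells lay below that bound, at 5.26% for Rptn, 1.75% for Krt14 and 15.8% for S100a3, so these absences set no group apart. Ly6d was found in 13 of the 17 Crct1 cells at 2000 UMIs. Epcam was found in 9 of the 17 Krt17, Slurp1 or Ly6g6c cells (52.9%) and in 35 of the 57 S100a7a-only cells (61.4%). Median depths were 4501 UMIs in the Krt17, Slurp1 or Ly6g6c cells and 5863 UMIs in the S100a7a-only cells. Lypd2 and Slurp1 are neighbours, and the groups were formed from the same cells, so these shares are a description.

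**Figure D4:**
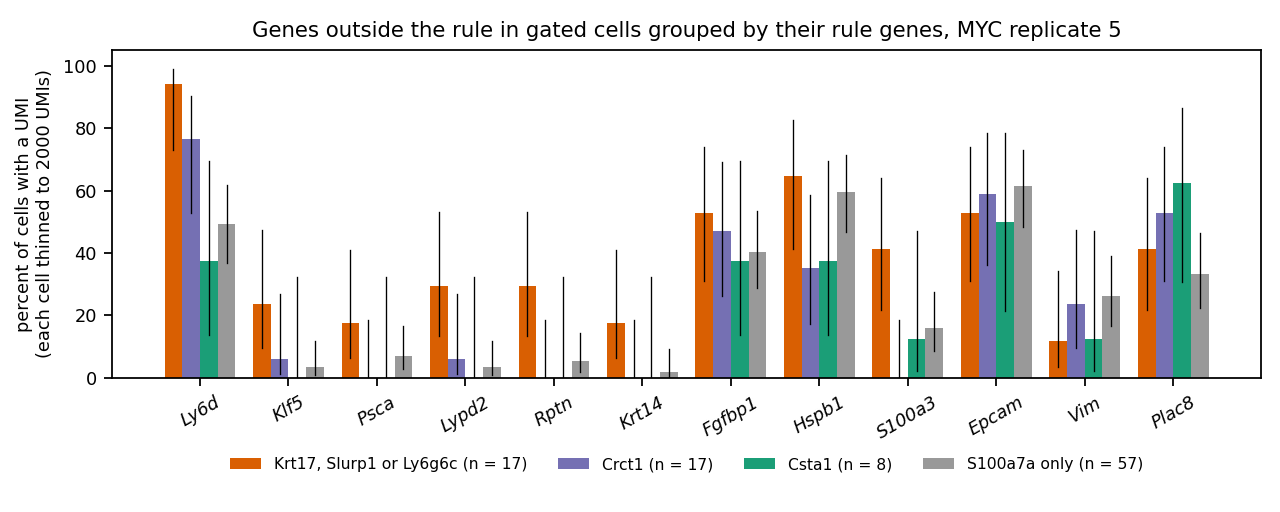
Percentage of gated cells of MYC replicate 5 with a UMI of each of 12 genes after thinning to 2000 UMIs, in the cells with Krt17, Slurp1 or Ly6g6c, with Crct1, with Csta1 and with S100a7a alone (bars, 95% Wilson intervals). Rptn stands at 29.4% in the first group and 5.26% in the S100a7a-only group.

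Genes of the keratinocyte programme were found in part. Of 14 basal keratinocyte genes listed in MYC replicate 5, 10 had UMIs in the 99 cells and 4 had none, among them Trp63, and 43 cells held a UMI of the list. The list summed to 234 CPM in gated, 140 CPM in collagen-gated and 62.4 CPM in simple-epithelial-gated cells. Krt14 alone gave 119 CPM of the sum in gated cells. Of 3 genes of the list compared with collagen-gated cells, none was 2-fold higher and 2 were 2-fold lower. Over all genes compared, 1.89% were higher and 8.68% lower. Krt5 had 8 UMIs, all in 1 cell, and Krt14 had 77 UMIs in 4 cells, 56 of them in 1 cell. Of 13 suprabasal genes listed, 8 had no UMI, and of 14 cornified envelope genes 10 had none. The suprabasal list summed to 88.2 CPM in gated, 173 CPM in collagen-gated and 48.4 CPM in simple-epithelial-gated cells. The cornified envelope list summed to 79.0 CPM in gated, 18.0 CPM in collagen-gated and 27.4 CPM in simple-epithelial-gated cells, and 22 gated cells held a UMI of it. The wound keratin Krt16 had 13 UMIs in 1 cell, and 4 of the 5 wound and mucosal keratins listed had none. Lor, which encodes the envelope protein loricrin, was found in 11.1% of gated cells, against 2.32% of haematopoietic cells in the same library. Over all kept cells of that library, 628 (4.12%) held Lor, so most cells with it were not gated cells. Its shares were not taken at equal depth. The simple epithelial keratin Krt8 was found in 9.09% of gated cells and 3.84% of haematopoietic cells, at median depths of 5623 and 5204 UMIs. It was not more frequent than in collagen-gated (9.77%) or simple-epithelial-gated cells (9.78%), at median depths of 6807 and 6141 UMIs. With cells thinned to equal depth, Krt8 was found in 3.03% of gated, 3.93% of collagen-gated and 4.11% of simple-epithelial-gated cells. The simple-epithelial gate itself used Krt8. Genes of epithelial junctions were common, with Epcam in 82.8% of gated and 35.4% of haematopoietic cells and the claudin gene Cldn6 in 56.6% of gated cells. Epcam was found in 56.95% of collagen-gated and 98.99% of simple-epithelial-gated cells, and the simple-epithelial gate used Epcam. With cells thinned to equal depth, its shares were 58.6% in gated, 38.2% in collagen-gated and 83.3% in simple-epithelial-gated cells.

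Smarcb1, the gene deleted in this model, had 2 UMIs in the 99 gated cells of MYC replicate 5, or 3.10 CPM (its share of all UMIs of the class, scaled to 1000000; exact Poisson interval 0.375 to 11.2). It had no UMI in the gated cells of replicate 1, which allows up to 81.9 CPM, or of replicate 3, which allows up to 124 CPM. Collagen-gated cells of replicate 5 stood at 1.51 CPM (1.08 to 2.06) and simple-epithelial-gated cells at 1.95 CPM (1.14 to 3.12). Haematopoietic cells stood at 32.4 CPM (30.2 to 34.7) in replicate 5, 37.0 CPM in replicate 1, 49.3 CPM in replicate 2, 30.5 CPM in replicate 3 and 35.5 CPM in replicate 4. The interval of the gated cells lies below that of the haematopoietic cells in replicate 5. Tags at the 3' end do not test whether the floxed exon was removed.

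The gated cells were next set against 2 other classes of MYC replicate 5 under the same cell filter and the same immune and cycling limits. Collagen-gated cells (3459) had 3 or more UMIs of Dcn, Lum, Col1a1 and Col3a1, and simple-epithelial-gated cells (1289) had 2 or fewer of these and 3 or more of Krt8, Krt18, Krt19 and Epcam, both with at most 2 UMIs of the rule genes and 1 of the vascular genes Pecam1, Cdh5 and Rgs5. Replicate 5 alone had 20 or more gated cells, so there was no test across animals, and each ratio of CPM has a 95% counting interval. The sums were 645901 UMIs in gated, 26416885 in collagen-gated and 8721030 in simple-epithelial-gated cells. Genes that a gate used were left out of the counts.

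Against collagen-gated cells, the gated cells held more of single genes such as Serpinb9b, Lypd2, Serpinb2 and S100a3 and less of most compared mesenchymal genes. Of 5759 genes with 10 or more UMIs expected in the gated cells, 109 (1.89%) were 2-fold or more higher and 500 (8.68%) 2-fold or more lower in the gated cells, or 10.6% either way, and the median log2 ratio was -0.15. Among the 20 highest ratios, the serpin gene Serpinb9b stood at 128 CPM in gated and 7.12 CPM in collagen-gated cells, a ratio of 18.1 (13.8 to 23.5). Serpinb2, the plasminogen activator inhibitor of macrophages and keratinocytes, stood at 424 and 42.3 CPM, a ratio of 10.0 (8.75 to 11.4). Lypd2 stood at a ratio of 16.2 (11.6 to 22.4) and the LY6-family gene Psca at 8.83 (6.65 to 11.6). The ratio was 7.51 (5.95 to 9.40) for S100a3, 7.96 (5.15 to 11.9) for Rptn and 7.32 (4.75 to 10.9) for Klf5. Rptn and Klf5, with 29 gated UMIs each, had fewer than 10 UMIs expected and were not in the counts. On the list of epithelial transcription factors, 3 genes were compared, of which none was 2-fold higher and 2 were 2-fold lower. Fgfbp1, with 616 UMIs in 53 cells, stood at 954 and 185 CPM, a ratio of 5.16 (4.73 to 5.61).

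Some of the highest ratios rested on 1 cell. Krt14 had the highest ratio, 26.5 (19.6 to 35.5), and stood at 7.25 without its highest gated cell. Ctsr, at 9.98 (5.79 to 16.4), had all of its 20 UMIs in 1 gated cell and stood at 1.51 with the floor of 3 UMIs in place of that cell. Khdc1a, with 14 of its 21 UMIs in 1 cell, stood at 5.58 with that cell and 1.88 without it, and Cnn1, a smooth muscle calponin, at 6.95 with and 3.04 without its highest cell. Tnfrsf21, with 24 UMIs in 13 of the 99 gated cells, stood at 5.77 (3.60 to 8.88) over all of them. It stood at 0.575 when the S100a7a-only cells were left out, a value without a counting interval. Other genes of the 20 were Dlx6os1, Sult2b1, Ccdc88b, Ppp1r14a, Fxyd6 and Serpinb1a, at ratios of 5.08 to 6.41.

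At the low end, the growth factor gene Ptn had 2 UMIs in the gated cells, or 3.10 CPM, against 467 CPM in collagen-gated cells, a ratio of 0.00663 (0.000803 to 0.0240). Serpinf1, Crym, Aebp1, Hmgn3, Wnt5a, Iapp, Cthrc1, Gas1 and Cx3cl1 followed, each with 1 to 4 UMIs in the gated cells and ratios of 0.0178 to 0.0577. Vim, the mesenchymal intermediate filament, was found in 46 gated cells and stood at 362 and 1624 CPM, a ratio of 0.223 (0.195 to 0.254). On the list of EMT transcription factors and mesenchymal genes, 11 genes were compared. Of these, 9 were 2-fold lower in the gated cells, against 8.68% of all genes compared, and none was 2-fold higher. Their median log2 ratio was -2.16. The collagen gate selected cells for matrix genes, so this direction is partly fixed by the choice of cells.

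Against simple-epithelial-gated cells, Serpinb9b, Serpinb2, Lypd2 and several S100 genes stood higher in the gated cells. Of 5379 genes compared, 119 (2.21%) were 2-fold or more higher and 177 (3.29%) 2-fold or more lower, or 5.5% either way, and the median log2 ratio was -0.07. Serpinb9b had the highest ratio, 11.2 (8.27 to 15.1), followed by Serpinb2 at 9.66 (8.24 to 11.3) and Lypd2 at 9.23 (6.41 to 13.2). Without its highest gated cell, Serpinb2 stood at 6.54 and Lypd2 at 4.84. S100a3 stood at 142 CPM in gated and 16.3 CPM in simple-epithelial-gated cells, a ratio of 8.75 (6.65 to 11.5). S100a16, S100a14 and S100a4 stood at 7.52 (5.19 to 10.8), 6.66 (4.37 to 10.0) and 6.52 (5.09 to 8.31). Lypd2, S100a16, S100a14, Ecm1 and Ramp3, and Ctsr against collagen-gated cells, reached 100 UMIs in both classes together only with their gated UMIs, so a high ratio helped them to be named. Cst6, which encodes a cystatin of the cornifying epidermis, stood at 447 and 89.3 CPM, a ratio of 5.01 (4.36 to 5.74).

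Other genes at this end also rested in part on single cells. The membrane protein gene Tm4sf1 was found in 10 gated cells and stood at 8.75 (7.19 to 10.6), or 4.93 without its highest cell. Anxa1, which encodes annexin A1, was found in 14 cells and stood at 7.48 (5.86 to 9.51), or 3.11 without its highest cell. The metalloproteinase inhibitor gene Timp1 was found in 24 cells and stood at 698 and 124 CPM, a ratio of 5.61 (5.02 to 6.27). Dlk1, a Notch-ligand relative, stood at 5.06 with and 1.84 without the cell that held 124 of its 192 UMIs. Crabp1, Ecm1, Psca, Ramp3, Wfdc2, Msln and Ugdh stood at 5.19 to 6.81, and Wfdc2, at 2.73, was the lowest of them without the highest cell. Among the lowest ratios were those of Iapp, Nupr1, Lbp, Mmp13, Gfod2, Agt, Racgap1, Def6 and Cthrc1, each with 1 to 3 UMIs in the gated cells and ratios of 0.0441 to 0.131. The upper interval bounds of Gfod2, Agt, Racgap1 and Def6 lay above 0.5, so that a 2-fold lower level was not settled by the counts.

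**Figure D5:**
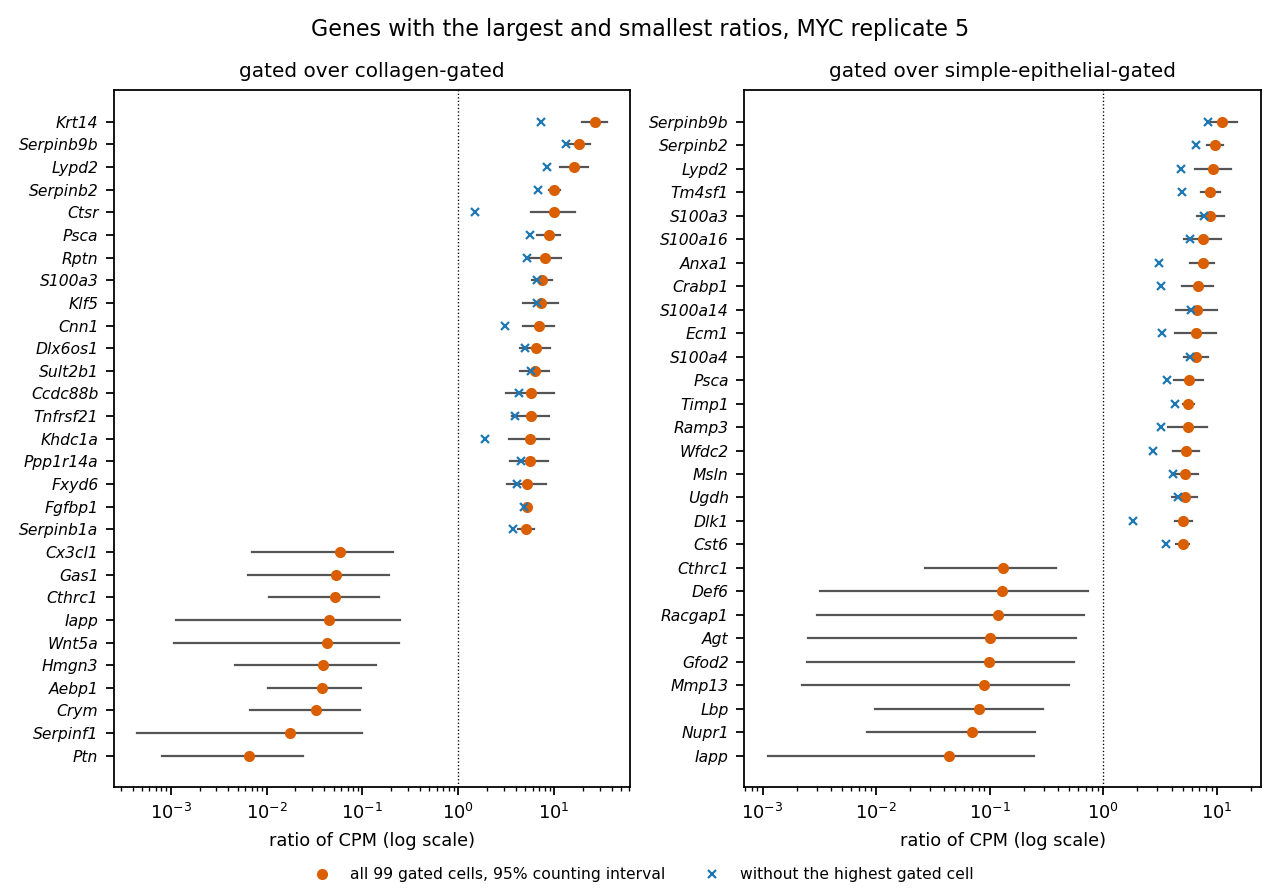
Ratio of CPM in the 99 gated cells over collagen-gated cells and over simple-epithelial-gated cells of MYC replicate 5 (log axis), for genes named from the 20 highest and 10 lowest ratios of each comparison, with 95% counting intervals; crosses give the ratio without the highest gated cell of the gene. Krt14 moves to 7.25 and Dlk1 to 1.84 without that cell.

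By gene list, the S100 genes were the most abundant. Their summed level was 18634 CPM in gated, 10883 CPM in collagen-gated and 9393 CPM in simple-epithelial-gated cells, most of it S100a6, at 13052, 7464 and 5223 CPM. Of the S100 genes compared, 3 of 8 were 2-fold higher than in collagen-gated cells and 5 of 7 than in simple-epithelial-gated cells, against 1.89% and 2.21% of all genes compared, and none was 2-fold lower. Median log2 ratios were 0.65 and 1.50. Among serine proteases and their inhibitors, 6 of 10 were 2-fold higher than in collagen-gated cells and 4 of 10 than in simple-epithelial-gated cells, Serpinb1a and Serpinb2 in both. Among adherens and tight junction genes, 5 of 11 were 2-fold higher than in collagen-gated cells, among them Cldn4 at 2.32 (1.88 to 2.82) and the cingulin gene Cgn at 2.41 (1.67 to 3.37), and none of 12 than in simple-epithelial-gated cells.

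The LY6 and uPAR genes held Ly6d at 3005 CPM in gated, 1314 CPM in collagen-gated and 2207 CPM in simple-epithelial-gated cells. Ly6d was found in 74.7% of gated, 55.6% of collagen-gated, 66.5% of simple-epithelial-gated and 42.6% of haematopoietic cells. With cells thinned to equal depth, its shares were 60.6% in gated, 34.6% in collagen-gated and 50.6% in simple-epithelial-gated cells. Among the gated cells, the thinned share was 94.1% in Krt17, Slurp1 or Ly6g6c, 76.5% in Crct1, 37.5% in Csta1 and 49.1% in S100a7a-only cells. The S100a7a-only and Csta1 cells thus did not stand above the simple-epithelial-gated cells. Of the list, 1 of 5 compared genes was 2-fold higher than in collagen-gated cells and 2 of 6 than in simple-epithelial-gated cells, and none was 2-fold lower. For this list and the next ones, the shares over all genes compared were 1.89% higher and 8.68% lower against collagen-gated cells. Against simple-epithelial-gated cells they were 2.21% higher and 3.29% lower. Of 10 compared genes on the list of MYC tumour genes of the series, which an earlier analysis of these data chose, 7 were 2-fold higher and 1 lower than in simple-epithelial-gated cells, and 1 of 11 was higher and 4 lower than in collagen-gated cells. The lower one against simple-epithelial-gated cells was Plac8, at 619 and 1721 CPM. Of 17 proliferation genes, 7 were 2-fold lower and none higher than in simple-epithelial-gated cells, and 3 lower and none higher than in collagen-gated cells, among classes that all excluded cells with both Mki67 and Top2a. No gene of 20 on the interferon response list or of 11 compared MHC class I genes differed 2-fold from either class, where 10.6% and 5.5% of all genes compared did.

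Among genes chosen after their values were seen, the small heat-shock protein genes Cryab and Hspb1 were abundant in the gated cells of MYC replicate 5. Hspb1 had no UMI in the gated cells of replicate 1, where Cryab stood at 2810 CPM, and neither gene had a UMI in those of replicate 3. Cryab stood at 7170 CPM in gated, 1653 CPM in collagen-gated and 3271 CPM in simple-epithelial-gated cells, and Hspb1 at 1212, 281 and 328 CPM. At 2000 UMIs per cell, Hspb1 was found in 54.5% of gated, 25.8% of collagen-gated, 29.9% of simple-epithelial-gated and 9.51% of haematopoietic cells. Cryab was found in 90.9% of gated cells, close to the 90.3% of simple-epithelial-gated cells, and in 56.6% of collagen-gated cells.

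Other values moved with the class. The nuclear RNA Malat1 took a median of 9.99% of UMIs in gated cells of MYC replicate 5, 5.82% in collagen-gated, 5.42% in simple-epithelial-gated and 3.66% in haematopoietic cells, and median depths were 5623, 6807, 6141 and 5204 UMIs. In replicate 1 the median Malat1 share was 0.0281% in gated and 1.40% in collagen-gated cells, so its direction was opposite there. Of 12 macrophage and microglia genes, 11 had UMIs in the gated cells of replicate 5, and the list summed to 1082 CPM in gated, 1280 CPM in collagen-gated, 1600 CPM in simple-epithelial-gated and 24147 CPM in haematopoietic cells. The T and NK cell list summed to 23.2, 26.8, 26.7 and 323 CPM in these classes, with 2 of its 8 listed genes at 0 in the gated cells. The 6 listed choroid and ependymal genes had no UMI in the gated cells. The part of Malat1, depth and immune RNA in the ratios was not tested.

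The gated cells of the other tumours were few, and each held 1 rule gene alone. In replicate 1, 2 cells held 144 and 124 UMIs of Crct1 and 3 cells held 14, 7 and 3 UMIs of S100a7a. Fgfbp1 was found in all 5, with 172 UMIs (4693 CPM), against 2253 CPM in collagen-gated and 2704 CPM in simple-epithelial-gated cells of that library. S100a6 was found in all 5 with 732 UMIs (19973 CPM), against 5361 and 6125 CPM in the other classes, and Epcam in 3 of 5. Ly6d, Klf5 and Krt14 had no UMI, and Ly6d had 1 UMI in the 35 collagen-gated cells there. In replicate 3, 3 cells held 6, 4 and 4 UMIs of S100a7a. Vim was found in all 3, with 183 UMIs, Col1a2 in all 3 with 16, Timp1 in all 3 with 44 and the mesothelin gene Msln in all 3 with 7. Epcam and Ly6d are not among the genes listed for that library. With 5 and 3 cells, these values describe single cells and not the tumours.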

How the data were processed

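Single-cell gene expression was measured in 7 tumours. The deposited tables hold raw UMI counts per gene and barcode, made with Cell Ranger 2.0.2 and mm10 per the submitters' processing notes. No table lists a gene found in fewer than 3 barcodes, and unlisted genes count as 0. The study's text gives 24199 cells, against 24433 barcodes in the files and 23938 after the filter used here. Groups were taken from the labels. UMIs were summed per library and class, given as CPM with exact Poisson intervals, and compared as ratios with exact counting intervals at 95%; a count of 0 was set to a floor of 3 UMIs per class. The edgeR test planned for animals with 20 or more cells per class could not be run, since 1 animal had that many, so no p-value is given. The 20 highest and 10 lowest ratios among genes with 100 or more UMIs in both classes together were named, leaving out gene models, pseudogene types, ribosomal, mitochondrial, Xist, Y-linked and gate genes, with the rule genes, Smarcb1 and up to 6 genes of each of 34 lists. Ratios were counted where 10 or more UMIs were expected in the gated cells. Cells were thinned with fixed seeds, doublets were scored by Scrublet (scanpy 1.11.5), and ratios were tested on simulated data, with Python 3.11.15, numpy 2.4.6, scipy 1.17.1 and matplotlib 3.10.9. Positions are from GENCODE. The cells, gates and gene lists were chosen with earlier results of these data known. A few items are not reported here.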

Additional observations from a re-analysis of the deposited data

Results flagged for a closer look

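MYC replicate 5 stood apart from the other 4 MYC libraries in its number of kept cells, 15253 against 183 to 2270, and in its number of gated cells, 99 against 0 to 5. Both were picked out by the gap of the highest library to the next, relative to the whole range. Of 9 such sets of values tested, 2 were picked out, and chance picks about 1 in 20. As a share of kept cells, the gated cells of replicate 5 (0.649%) lay below those of replicates 1 (1.45%) and 3 (1.64%).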

How the results depend on the processing

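The number of gated cells, 107, stayed between 75 and 134 with a sum of 2 or more or of 5 or more, with any of the 5 markers left out of the sum, with 1000 UMIs per cell, with thinning or with doublets removed. It was 38 with S100a7a left out of the sum, 49 with no collagen-matrix UMI allowed, and 3 where 3 UMIs of the 5 markers with 2 of these detected were asked for, an alternative chosen after seeing the data. Leaving out each of the 3 libraries with gated cells in turn gave 8 to 104 cells, 8 without MYC replicate 5. The share in replicate 5, 0.649%, was 0.826% with a sum of 2 or more, 0.459% with 5 or more, 0.236% with S100a7a left out of the sum, 0.275% with no collagen-matrix UMI and 0.0197% with 2 of the 5 markers asked for.

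The counts of genes 2-fold higher and lower, 109 and 500 against collagen-gated and 119 and 177 against simple-epithelial-gated cells, were 55 and 235, and 52 and 103, with thinning, where fewer genes could be compared (2590 and 2410). Leaving out the S100a7a-only cells, a choice made after seeing the data, gave 70 and 257, and 57 and 112, again over fewer genes. Leaving out each gene's highest gated cell, also chosen after seeing the data, can only lower a gated level, and gave 66 and 796, and 76 and 360. A sum of 5 or more and doublet removal kept these counts within 1.5 times. Smarcb1 was at 0 CPM in gated cells with thinning, and in haematopoietic cells it was 39.7 CPM with thinning and 40.6 CPM with doublets removed, against 32.4 CPM. Of 267 recomputed ratios and levels of named genes, 197 moved by less than their counting interval and 69 moved by more. Tnfrsf21 against collagen-gated cells moved to the other side of 1, at 0.575 with the S100a7a-only cells left out. It had 24 UMIs in all gated cells and 0.575 has no interval, so a reversal was not settled by the counts. The cause was not tested. For 33 others no gated UMI remained.

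No paired analysis was possible because 1 animal alone had 20 or more gated cells, and it alone had 10 or more. For the same reason the edgeR and DESeq2 fits, the fit without a low-count filter and the fits leaving out an animal were not run. The ratios describe 1 tumour, and their intervals hold counting error only.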
